A study of Mus musculus with 10 samples.

Results

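The 8 genes described here make up the core of antigen presentation by major histocompatibility complex (MHC) class II: H2-Aa, H2-Ab1, H2-Eb1, H2-DMa, H2-DMb1, Cd74, Ciita and Ctss. They were taken by symbol from a table of 57010 mouse gene identifiers. All 8 are in that table, each under 1 identifier. All 8 were also among the 12455 genes tested, which are those whose normalized read count averaged 10 or more over the libraries. The study sequenced polyadenylated RNA from 10 libraries of primary bone marrow-derived macrophages (BMDM), which are macrophages grown from marrow precursors. Marrow came from femurs of mice that were wild type (WT) or that lacked the Wiskott-Aldrich syndrome protein WASp (WKO), an activator of branched actin assembly in blood cells. Every culture, controls included, was grown for 7 days in RPMI with 20 ng/mL recombinant mouse M-CSF, and 5 ng of total RNA entered each library. The 4 groups were WT control (unconfined, 2 libraries), WKO control (unconfined, 2), WT confined (3) and WKO confined (3), where confinement means 1 h under a ceiling of silicone micropillars 3 µm high.

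The labels give no strain, age, WASp allele or animal for any library, and no batch. The libraries of a group are treated as replicates. Since nothing says that they came from separate animals or cultures, the p-values measure only the spread between these libraries. The libraries held 13295701 to 19329908 reads. Was, the gene of WASp, was at 1308 to 1649 normalized reads in the 5 WT libraries and at 96.9 to 154 in the 5 WKO libraries, lower in each but not at 0. Macrophage markers were high throughout: the 10 listed genes, among them Csf1r, Adgre1 and Lyz2, summed to 183221 or more in every library.

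MHC class II molecules show peptides from the endosomal pathway to CD4+ T cells. An alpha and a beta chain assemble on the invariant chain, encoded by Cd74, which fills the groove and directs the complex to endosomes. There the cysteine protease cathepsin S (Ctss) trims the invariant chain to a short fragment, and H2-DM, a dimer of the products of H2-DMa and H2-DMb1, exchanges that fragment for peptide. CIITA (Ciita) is a coactivator that does not bind DNA itself. It is recruited by RFX, CREB and NF-Y proteins on the X and Y boxes of class II promoters, and in macrophages it is best known as a target of interferon-gamma. Macrophages grown in M-CSF alone are known for low class II levels.

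Promoter sequences are shown because CIITA acts at these promoters and because Ciita was the member that passed the test. RefSeq promoters (GRCm38.p6) were matched for 5 of the 8 members: H2-Aa, H2-Eb1, H2-DMa, H2-DMb1 and Ctss. H2-Ab1, Cd74 and Ciita had no entry. The 250 bases before the RefSeq start are given 5′ to 3′ on the gene's strand, at chr17:34287824-34288073 (minus strand) for H2-Aa, chr17:34305617-34305866 (plus) for H2-Eb1 and chr3:95526536-95526785 (plus) for Ctss. For H2-DMb1 a stretch of 30 bases at chr17:34153084-34153113 (plus) is shown. Capitals mark CTNGNAACT (an X box-like run), TGACGTCA, ATTGG or its complement CCAAT (a Y box-like run), and, in Ctss, GAAANNGAAA (resembling an interferon-stimulated response element).
H2-Aa: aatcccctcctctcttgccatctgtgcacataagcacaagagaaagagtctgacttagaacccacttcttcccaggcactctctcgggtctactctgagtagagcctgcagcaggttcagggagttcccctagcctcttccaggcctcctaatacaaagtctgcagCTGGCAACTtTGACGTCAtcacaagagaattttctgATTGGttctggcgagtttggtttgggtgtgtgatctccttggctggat
H2-Eb1: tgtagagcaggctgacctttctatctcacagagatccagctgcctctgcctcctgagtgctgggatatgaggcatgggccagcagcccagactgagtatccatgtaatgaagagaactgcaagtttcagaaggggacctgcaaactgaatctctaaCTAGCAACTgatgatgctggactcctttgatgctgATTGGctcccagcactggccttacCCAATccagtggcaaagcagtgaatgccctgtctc
H2-DMb1: tgaggtttacCTAGTAACTgatgatgctag
Ctss: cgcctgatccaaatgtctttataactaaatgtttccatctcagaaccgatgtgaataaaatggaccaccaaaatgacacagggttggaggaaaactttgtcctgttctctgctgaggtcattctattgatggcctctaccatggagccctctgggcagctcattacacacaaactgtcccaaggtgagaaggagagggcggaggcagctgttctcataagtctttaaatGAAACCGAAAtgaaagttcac

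In H2-Aa, H2-Eb1 and H2-DMb1 the X box-like run was followed on the same strand by ATTGG, with starts at most 50 bases apart. The X box-like run began 84 bases before the start in H2-Aa, 94 in H2-Eb1 and 97 in H2-DMb1, and ATTGG began at 48, 59 and 61 bases. In H2-DMb1 the ATTGG lies beyond the stretch shown. GENCODE M21 starts H2-DMb1 at chr17:34153072, upstream of both runs, so by that annotation they lie inside the gene. Searched on both strands, CTNGNAACT was in 3.47% of the 32851 promoters of this length and ATTGG in 33.8%. The ordered pair was in 41 promoters, or 0.125%. The letters of CTNGNAACT were chosen after these promoters had been read, so that share describes the search only. TGACGTCA, in 1.55% of promoters, was found in H2-Aa. GAAANNGAAA, in 2.98%, was found 21 bases before the start of Ctss. Of the 2 promoters listed for H2-DMa, 1 held none of these runs and the other held ATTGG, 198 bases before its start.

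In GENCODE M21 (GRCm38), the chain and H2-DM genes lie together on chromosome 17: H2-DMa at chr17:34119541-34139101, H2-DMb1 at chr17:34153072-34160230, H2-Ab1 at chr17:34257689-34269419, H2-Aa at chr17:34282744-34287823 and H2-Eb1 at chr17:34305867-34316674. H2-Aa is on the minus strand and the others are on the plus strand. Ciita is at chr16:10480059-10528418 and Ctss at chr3:95526786-95556403, both on the plus strand. The submitters' notes name GRCm38 and mm10 as builds.

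Per kilobase of annotated exon, the members spanned a wide range of levels. Ctss stood at 23881 ± 2093 normalized reads per kilobase (SD, n = 10 libraries) and Cd74 at 568 ± 196. H2-DMb1 followed at 245 ± 38.2, then H2-Eb1 at 144 ± 46.3, H2-Ab1 at 120 ± 42, H2-Aa at 108 ± 37.1 and H2-DMa at 71 ± 19.7. Ciita was lowest, at 5.73 ± 2.08. Over the 10 libraries, the ranges of Ctss, Cd74 and Ciita did not overlap with those of their neighbours in this order. The ranges of the 3 chain genes overlapped with each other and with that of H2-DMa below. Those of H2-Eb1 and H2-Ab1 also overlapped with that of H2-DMb1, and that of H2-Aa did not. These ranges are taken across libraries and do not give the order within a library. Exon lengths come from GENCODE M21, which may not be the annotation behind the table.

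The chain genes, which encode chains of the peptide-binding dimers, did not pass the test in any comparison. H2-Aa encodes the I-A alpha chain. It was at 286 and 671 normalized reads in the WT unconfined libraries (replicates 1 and 3) and at 396 and 465 in the WKO unconfined ones. The WT confined libraries (replicates 2, 3 and 6) held 279.6, 314 and 285, and the WKO confined libraries (replicates 1, 2 and 5) held 442, 337 and 621. All 3 WKO confined libraries were thus above all 3 WT confined ones, while the WT unconfined pair enclosed both unconfined WKO values.

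H2-Ab1, the partner beta chain, showed nearly the same order of libraries. It was at 209 and 505 in WT unconfined, 279 and 311 in WKO unconfined, 208, 219 and 235 in WT confined and 344, 291 and 483 in WKO confined cells. Again the confined groups did not overlap and the unconfined groups did. The ratio of H2-Aa to H2-Ab1 stayed between 1.16 and 1.5 in every library.

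H2-Eb1 encodes the I-E beta chain. It was at 146 and 452 in WT unconfined and at 249 and 248 in WKO unconfined libraries. In WT confined libraries it was at 253, 256 and 209.7, and in WKO confined libraries at 356, 252 and 382. Here the confined groups overlapped, because WKO confined replicate 2 was below 2 of the WT libraries.

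In confined cells the log2 difference, WKO minus WT, was 0.63 for H2-Aa (SE 0.283, limma adjusted p = 0.291), 0.72 for H2-Ab1 (SE 0.279, adjusted p = 0.214) and 0.44 for H2-Eb1 (SE 0.324, adjusted p = 0.548). In unconfined cells it was -0.03, -0.14 and -0.05, with adjusted p of 0.947 or more. The 95% interval for H2-Aa in unconfined cells ran from -0.79 to 0.73, so that a difference of either sign was not resolved. Without WT unconfined replicate 3 the unconfined values became 0.58, 0.49 and 0.76, and none passed.

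**Figure D1:**
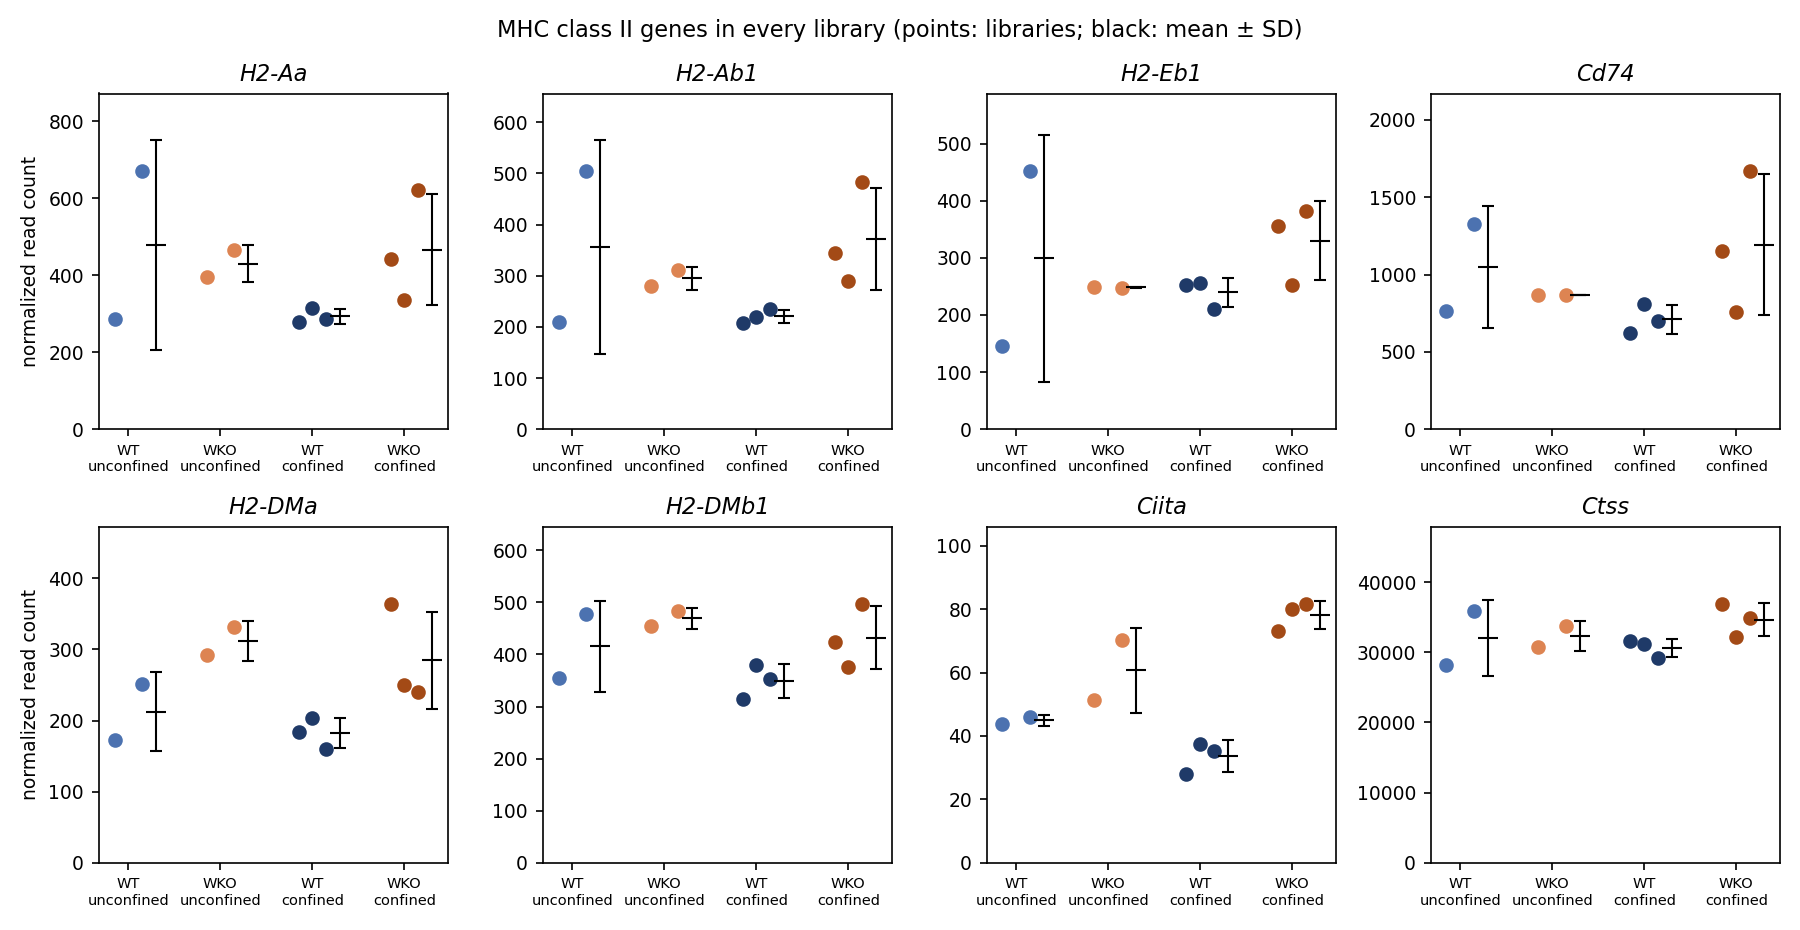
Normalized read count (y axis, linear, from 0) of each of the 8 genes in every library, by group on the x axis; points are libraries and the black marks give the mean ± SD. The 3 WKO confined libraries sit above the 3 WT confined ones for H2-Aa, H2-Ab1, H2-DMa, Ciita and Ctss, and the 2 WT unconfined libraries lie far apart for the chain genes and Cd74.

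The genes that handle the chains after synthesis also did not pass in any comparison. Cd74, the invariant chain, was at 768 and 1327 in WT unconfined, 866 and 866 in WKO unconfined, 625, 808 and 701 in WT confined and 1152, 759 and 1670.3 in WKO confined cells. WKO confined replicate 2 fell below WT confined replicate 3, so that the confined groups overlapped. The log2 difference in confined cells was 0.68 (SE 0.259, 95% interval 0.12 to 1.25, adjusted p = 0.206), and in unconfined cells -0.22 (SE 0.317, adjusted p = 0.901).

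H2-DMa, the alpha chain of the peptide editor, was higher in WKO in both conditions without overlap. It was at 173 and 251 against 292 and 331 in unconfined cells, and at 184, 203 and 161 against 363, 249.5 and 241 in confined cells. The log2 differences were 0.57 (SE 0.25, adjusted p = 0.494) and 0.62 (SE 0.205, adjusted p = 0.143). Averaged over both conditions the difference was 0.60 (SE 0.162, 95% interval 0.24 to 0.95), with an adjusted p of 0.0545, just above the threshold of 0.05. Of its exon bases, 360 (10.4%) overlap exons of Brd2 on the other strand. Whether counting used strand is not given in the sources used here, so reads there cannot be told apart. Brd2 was far more abundant than H2-DMa, with group means of 3619 to 6067 normalized reads. It differed by -0.00 between the genotypes in unconfined cells and by 0.28 in confined cells (log2, adjusted p = 0.998 and 0.415). With confinement it differed by 0.45 in WT and 0.73 in WKO (limma adjusted p = 0.319 and 0.0687). The part of Brd2 reads in the H2-DMa values was not tested.

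H2-DMb1, the beta chain of the same editor, was at 354 and 478 in WT unconfined, 455 and 484 in WKO unconfined, 315, 379 and 353 in WT confined and 424, 376 and 496 in WKO confined cells. The confined groups overlapped by 1 library each, and the difference was 0.30 (SE 0.157, adjusted p = 0.366). Its level is uncertain, since stretches of H2-DMb2 at up to 98% identity cover 76.9% of its longest transcript and the reads could be split between both. H2-DMb2 itself was at 7.6 to 26.3 normalized reads.

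Ciita, the coactivator of class II genes, was the only member that passed the test, and it was higher in WKO cells. It was at 43.7 and 46.1 in WT unconfined, 51.3 and 70.2 in WKO unconfined, 27.9, 37.5 and 35.3 in WT confined and 73.0, 80.0 and 81.5 in WKO confined libraries. All 5 WKO libraries were above all 5 WT libraries. In confined cells the mean was 78.2 ± 4.55 in WKO and 33.6 ± 5.08 in WT (SD, n = 3 each), a log2 difference of 1.20 (SE 0.263, 95% interval 0.63 to 1.78) or 2.30-fold, with a limma adjusted p of 0.0351. Averaged over both conditions the difference was 0.81 (SE 0.208, adjusted p = 0.0439). In unconfined cells it was 0.41 (SE 0.322, 95% interval -0.29 to 1.11, adjusted p = 0.763).

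The Ciita values rest on 26 to 93 reads per library. Both calls are close to the threshold: the one in confined cells was lost in 7 of the 10 fits that each left out 1 library, where the adjusted p reached 0.126 (without WT confined replicate 2) and the log2 difference stayed between 1.08 and 1.29. It was kept without WKO confined replicate 1, WT unconfined replicate 1 or WT unconfined replicate 3. The averaged call was kept only without WKO confined replicate 1, with adjusted p-values of 0.0568 to 0.216 in the other 9 fits. Exons of Dexi, on the other strand, overlap 329 bases (3.45%) of the Ciita exons. Dexi was 0.13 lower on the log2 scale in WKO than in WT confined cells, at 120 ± 20.1 against 131 ± 9.63 (SD, n = 3 each, limma adjusted p = 0.809).

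Ctss, the protease that acts on the invariant chain, was abundant and varied least, with a highest to lowest ratio of 1.31 over the 10 libraries. It was at 28168 and 35814 in WT unconfined, 30743 and 33758 in WKO unconfined, 31548, 31125 and 29179 in WT confined and 36804, 32236 and 34926 in WKO confined cells. The confined groups did not overlap, but the log2 difference was 0.18 (SE 0.112, adjusted p = 0.472). In unconfined cells it was 0.02 (SE 0.138, adjusted p = 0.984).

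Counted together, 8 of the 8 members had a higher fitted value in WKO than in WT confined cells, with a median log2 difference of 0.62, beside a median of 0.004 over all tested genes. Of the 8, 1 passed, where 1.38% of all tested genes passed as higher in WKO and 2.59% in either direction. The confined groups were apart, with WKO higher, for 5 of the 8 members, against 10.7% of all tested genes. An unadjusted p under 0.05 was reached by 5 of 8 members, against 16.8% of all. In unconfined cells 4 members were higher and 4 lower, the median was -0.01, and 0 of 8 passed (0.145% of all tested genes in either direction), with 1 at an unadjusted p under 0.05 (9.6% of all). The unconfined groups were apart, with WKO higher, for H2-DMa and Ciita, 2 of 8, against 22.2% of all tested genes. Averaged over both conditions 8 were higher, with a median of 0.27, and 1 passed (2.9% of all tested genes as higher, 5.57% in either direction), with 2 at an unadjusted p under 0.05 (20.2%). All 5 WKO libraries were above all 5 WT ones for Ciita alone, against 3.38% of all tested genes. The 3 chain genes turned to -0.01, -0.03 and -0.21 there without WT unconfined replicate 1. The members vary together across libraries, so these counts do not describe 8 independent genes.

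**Figure D2:**
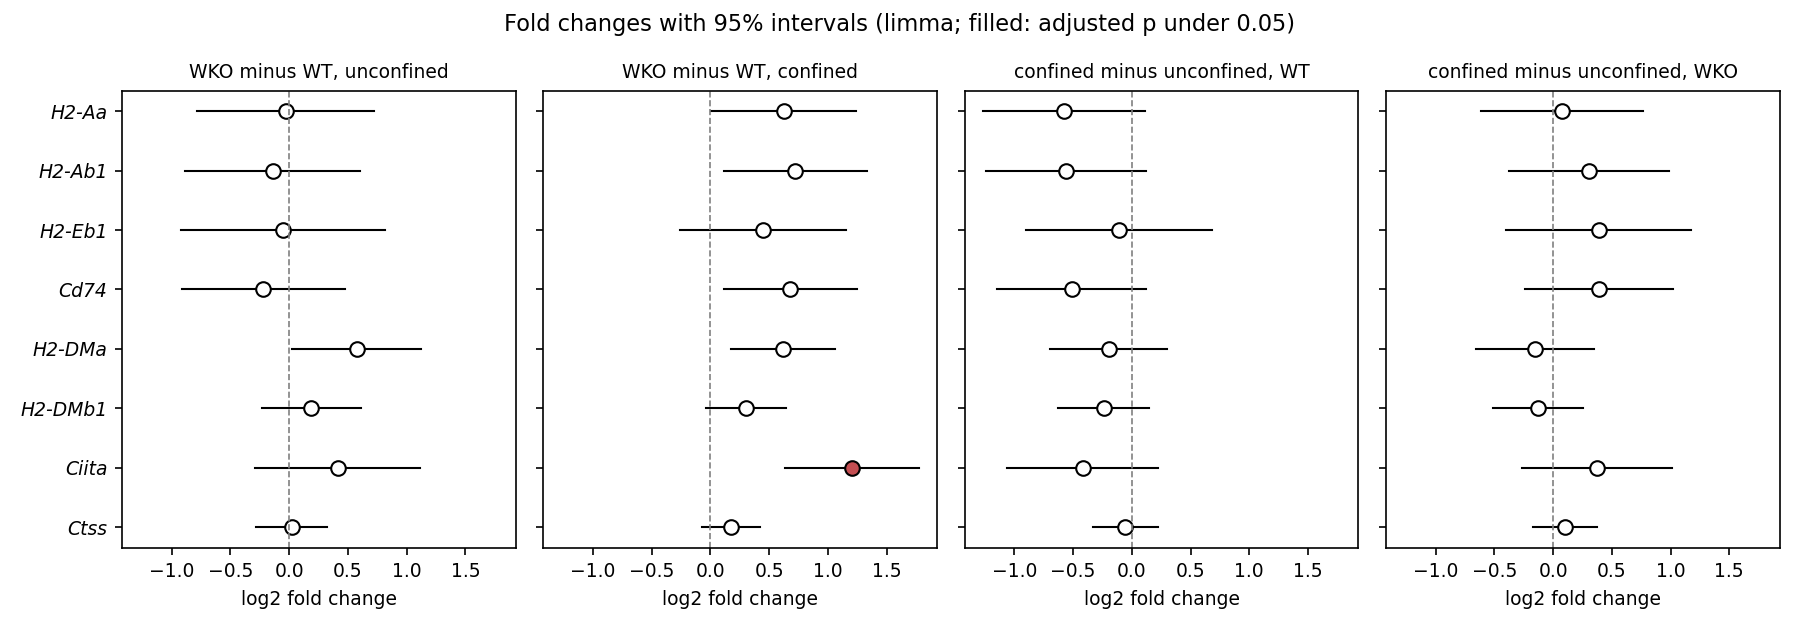
Log2 difference (x axis, on the log2(value + 1) scale) of each gene (y axis) in the 4 pairwise comparisons, with 95% intervals from limma; a filled point marks an adjusted p under 0.05. The one filled point is Ciita in WKO against WT confined cells, at 1.20, and every interval for confinement within a genotype spans 0.

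Confinement for 1 h left no member past the test in either genotype. In WT cells all 8 fitted values were lower after confinement, with a median log2 difference of -0.33 and adjusted p-values of 0.506 or more (0 of 8 passed, against 1.16% of all tested genes, and 0 reached an unadjusted p under 0.05, against 12.2%). These WT values lean on unconfined replicate 3: without it H2-Aa changed from -0.58 to 0.03, H2-Ab1 from -0.56 to 0.08, H2-Eb1 from -0.11 to 0.70, H2-DMa from -0.20 to 0.07 and Ctss from -0.05 to 0.12. In WKO cells 6 were higher and 2 lower, with a median of 0.20 and adjusted p-values of 0.591 or more (0 of 8, against 1.72% of all tested genes, with 0 at an unadjusted p under 0.05, against 14.1%). Averaged over both genotypes the members lay between -0.25 (H2-Aa) and 0.14 (H2-Eb1), and 0 passed (6.21% of all tested genes, with 0 members at an unadjusted p under 0.05, against 21.6%). The genotype and confinement comparisons share libraries and are not independent of each other.

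Ciita had fitted values that moved in opposite directions with confinement, and neither change passed the test. Its WT confined libraries were all below the WT unconfined ones, by 0.42 on the log2 scale (SE 0.294, adjusted p = 0.622). Its WKO confined libraries were all above the WKO unconfined ones, by 0.37 (SE 0.294, adjusted p = 0.613). The nearest unconfined and confined libraries were at 43.7 and 37.5 in WT and at 70.2 and 73.0 in WKO. In WT 1 of 8 members was apart and lower after confinement (17.7% of all tested genes), and in WKO 2 of 8, Ciita and H2-Eb1, were apart and higher (14.5%). Separate groups of this kind, opposite in the 2 genotypes, were seen for 0.843% of all tested genes. The interaction, which is the confinement difference in WKO minus that in WT, was 0.79 for Ciita (SE 0.415, 95% interval -0.11 to 1.70) with an unadjusted p of 0.0811 and an adjusted p of 0.999. All 8 members had a positive interaction, from 0.04 (H2-DMa) to 0.90 (Cd74), but H2-Eb1 (-0.31), H2-DMa (-0.23), H2-DMb1 (-0.10) and Ctss (-0.02) were negative without WT unconfined replicate 3. None passed, and of all tested genes 0% passed, while 1 member, Cd74, and 2.07% of all genes had an unadjusted p under 0.05.

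The members differed in how tightly replicates held together. The SD within groups on the log2 scale was 0.51 for H2-Eb1, 0.44 for H2-Aa, 0.43 for H2-Ab1 and 0.41 for Cd74, which lie at the 83rd, 79.5th, 78.4th and 77.2nd percentiles of all tested genes. It was 0.27 for H2-DMa, 0.19 for both H2-DMb1 and Ciita and 0.13 for Ctss. WT unconfined replicate 3 was the highest library for H2-Aa, H2-Ab1 and H2-Eb1, and WKO confined replicate 5 for H2-DMb1, Cd74 and Ciita. Those libraries were among the highest 3 for 6 and 7 of the 8 members.

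Over the 10 libraries, H2-Aa and H2-Ab1 were most alike (Pearson r = 0.97, Spearman rho = 0.94 on log2 values), and H2-Aa was at r = 0.92 with Cd74 and 0.91 with H2-DMb1. Ciita was less like the chains, with r = 0.57 for H2-Aa, 0.62 for H2-Ab1 and 0.36 for H2-Eb1, and most like H2-DMa, with r = 0.72. These are descriptions over libraries that share groups, and the value per pair rests on 10 points. Among 10209 other genes with a mean of at least 50, the mean profile of H2-Aa, H2-Ab1, H2-Eb1 and Cd74 was closest to Tgfbi (r = 0.93), Tmbim1 (0.93), Rnf130 (0.91), Lrp10 (0.87), Tmem37 (0.87) and Nectin2 (0.86). Ciita was closest to Mta3 (r = 0.99), Rxra (0.94), Baz2a (0.94), Thbs2 (0.93), Lrp5 (0.93) and Heg1 (0.93). The genes closest to Ctss included Nectin2 (r = 0.92), Mical1 (0.90), Pink1 (0.90), Nop53 (0.90) and Tex261 (0.90).

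The remaining genes of the class II region were low. The detection floor of 3 reads corresponds to 2.35 to 3.59 normalized reads, and H2-DMb2 (7.6 to 26.3) was above it in every library. H2-Ea, the I-E alpha chain and partner of the chain encoded by H2-Eb1, had 0 reads in all 10 libraries. GENCODE lists it as a polymorphic pseudogene, which is silent in some strains. H2-Eb2 was at 0 to 6.32 normalized reads, H2-Oa at 0 to 14.8 and H2-Ob at 0 to 53.3. H2-Oa and H2-Ob encode the chains of H2-O, an inhibitor of H2-DM. The list holds 6 names for 5 genes, since H2-Ea-ps is the GENCODE name of H2-Ea. All 5 were in the table, and 2, H2-Ob and H2-DMb2, were tested. None passed, and the smallest p was that of H2-Ob in the average over both conditions (log2 difference 1.67, SE 0.773, adjusted p = 0.253).

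Among 18 genes of class II transcription (the RFX, NF-Y and CREB subunits, Spi1, and the interferon-gamma pathway), 17 were tested, and Ifng itself had 0 reads in all libraries. Irf1, an interferon-induced activator of the Ciita promoter, rose with confinement in both genotypes. It was at 491 and 547 in WT unconfined, 723 and 1172 in WKO unconfined, 3626, 5464 and 4414 in WT confined and 4349.6, 3198 and 8777 in WKO confined libraries. The log2 difference was 3.10 in WT (SE 0.343, limma adjusted p = 0.00173) and 2.43 in WKO (SE 0.343, adjusted p = 0.00416), with no overlap in either. Without WKO unconfined replicate 1 the WKO value was 2.08 with an adjusted p of 0.0888. No other gene of the list passed within a genotype, so 1 of the 17 passed in each, against 1.16% and 1.72% of all tested genes. Over both genotypes together 2 of the 17 passed as higher and 2 as lower, against 6.21% of all tested genes in either direction. Beside Irf1, Socs1, a feedback inhibitor of cytokine signalling, also rose there (1.42, adjusted p = 0.0408), and Irf8 (-0.43, adjusted p = 0.0145) and Nfya (-0.35, adjusted p = 0.0349) fell. These 3 calls were lost in 7, 3 and 8 of the 10 fits that left out 1 library, with adjusted p-values up to 0.147, 0.0728 and 0.153.

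Between the genotypes, 0 of the 17 passed in unconfined cells and 0 in confined cells (0.145% and 2.59% of all tested genes). At an unadjusted p under 0.05 there were 2 and 3 of the 17, against 9.6% and 16.8% of all. The medians were 0.12 and 0.14. Averaged over conditions 1 passed, as higher in WKO, against 2.9% of all tested genes. This was Ifngr1, the ligand-binding chain of the interferon-gamma receptor, which was higher in WKO by 0.51 (SE 0.11, adjusted p = 0.0203). It was at 2169.7 and 2454 in WT unconfined and 3202 and 3456 in WKO unconfined libraries. Confined libraries were at 2502 to 2666 in WT and 3194 to 4716 in WKO. All 5 WKO libraries were thus above all 5 WT ones, as for 3.38% of all tested genes. The adjusted p became 0.0665, 0.112 and 0.0998 without WKO unconfined replicate 1, WKO unconfined replicate 3 and WT unconfined replicate 1. Rfx5, Rfxank, Rfxap and Spi1 did not pass in any comparison.

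Of 13 genes of endolysosomal antigen processing, all were tested and 2 passed as higher in WKO confined cells, against 1.38% of all tested genes. Ctsh, the aminopeptidase cathepsin H, was at 2267 and 3119 in WT unconfined, 3669 and 3740.2 in WKO unconfined, 2221, 2337 and 1887 in WT confined and 3775, 3459 and 4502 in WKO confined libraries. Its log2 difference in confined cells was 0.86 (SE 0.141, adjusted p = 0.011). Ctsc, the dipeptidyl peptidase cathepsin C, was at 1946 and 2726, 3573 and 3800.1, 2301, 2351 and 2020.4, and 3926, 4426 and 8159.7 in the same order of groups. Its difference was 1.23 (SE 0.227, adjusted p = 0.0171). For both genes all 5 WKO libraries were above all 5 WT ones, as for 3.38% of all tested genes. Both also passed in the average over conditions (0.67, adjusted p = 0.00609, and 0.95, adjusted p = 0.011), where 2.9% of all tested genes passed as higher. Ap1b1, an adaptor subunit of vesicle transport, joined them there (0.33, adjusted p = 0.0319). In confined cells the Ctsh call was lost without WT confined replicate 2 (adjusted p = 0.0514), and the Ctsc call without any 1 of the 3 WT confined libraries (0.0654 to 0.0681). The averaged Ctsc call was lost without WKO unconfined replicate 3 or WT unconfined replicate 1 (0.0675 and 0.0699), and the Ap1b1 call in 7 of 10 such fits (up to 0.189). The list as a whole did not lean one way, with 6 higher and 7 lower in confined cells and a median of -0.03. Between the genotypes, an unadjusted p under 0.05 was reached by 3 of 13 in unconfined and 6 of 13 in confined cells. The shares of all tested genes were 9.6% and 16.8%. Averaged over conditions it was reached by 7 of 13, against 20.2% of all. With confinement 0 of 13 passed in WT or WKO cells, against 1.16% and 1.72% of all tested genes. An unadjusted p under 0.05 was reached by 0, against 12.2% and 14.1%.

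Among 9 genes of class II turnover and costimulation, 8 were tested. Cd83, a surface protein that limits degradation of class II by MARCH ubiquitin ligases, rose with confinement in both genotypes. It was at 432 and 695 in WT unconfined, 673 and 958 in WKO unconfined, 2729.7, 3488 and 2411 in WT confined and 3284, 2469.8 and 9608 in WKO confined libraries. The log2 difference was 2.37 in WT (SE 0.443, adjusted p = 0.0261) and 2.41 in WKO (SE 0.443, adjusted p = 0.0192). The WT call was lost without any 1 of the 5 WT libraries (adjusted p up to 0.238), and the WKO call without either WKO unconfined library (0.243 and 0.0954). Over both genotypes together Cd83 rose by 2.39 (adjusted p = 0.00106), and it passed there without any 1 library. Cd40, a costimulatory receptor, passed in WKO (1.82, SE 0.398, adjusted p = 0.0433) but not in WT (1.16, SE 0.398, adjusted p = 0.24). Its libraries were at 90.8 to 123 in unconfined cells and at 205 to 755 in confined cells. Cd40 also passed over both genotypes together, with a log2 difference of 1.24 to 1.67 when any 1 library was left out. There 3 of the 8 genes passed as higher, against 6.21% of all tested genes in either direction. The interaction for Cd40 was 0.67 (adjusted p = 0.999), so that the genotypes were not shown to differ in this, and the WKO call was lost in 7 of the 10 fits that left out 1 library (adjusted p up to 0.349). Cd274, the inhibitory ligand PD-L1, passed over both genotypes together (0.96, adjusted p = 0.0194), and in 5 of those 10 fits. Between the genotypes 0 of the 8 passed in unconfined or confined cells (0.145% and 2.59% of all tested genes). There 0 and 1 were at an unadjusted p under 0.05, against 9.6% and 16.8% of all.

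The class I pathway served as a neighbouring list of 17 genes, all tested. Canx, the chaperone calnexin, passed with confinement over both genotypes (0.54, SE 0.132, adjusted p = 0.034), with WKO confined replicate 1 at 7650.2 within the unconfined range of 7248 to 8483. It was lost in 8 of the 10 fits that left out 1 library (adjusted p up to 0.138). No other gene of this list passed in any comparison. For confinement over both genotypes 1 of the 17 thus passed, against 6.21% of all tested genes. H2-K1, a class I heavy chain, was 0.16 higher in WKO than in WT confined cells (adjusted p = 0.658) and B2m, its light chain, 0.12 higher (adjusted p = 0.678). The list medians for WKO against WT were 0.01 in unconfined and -0.01 in confined cells.

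**Figure D3:**
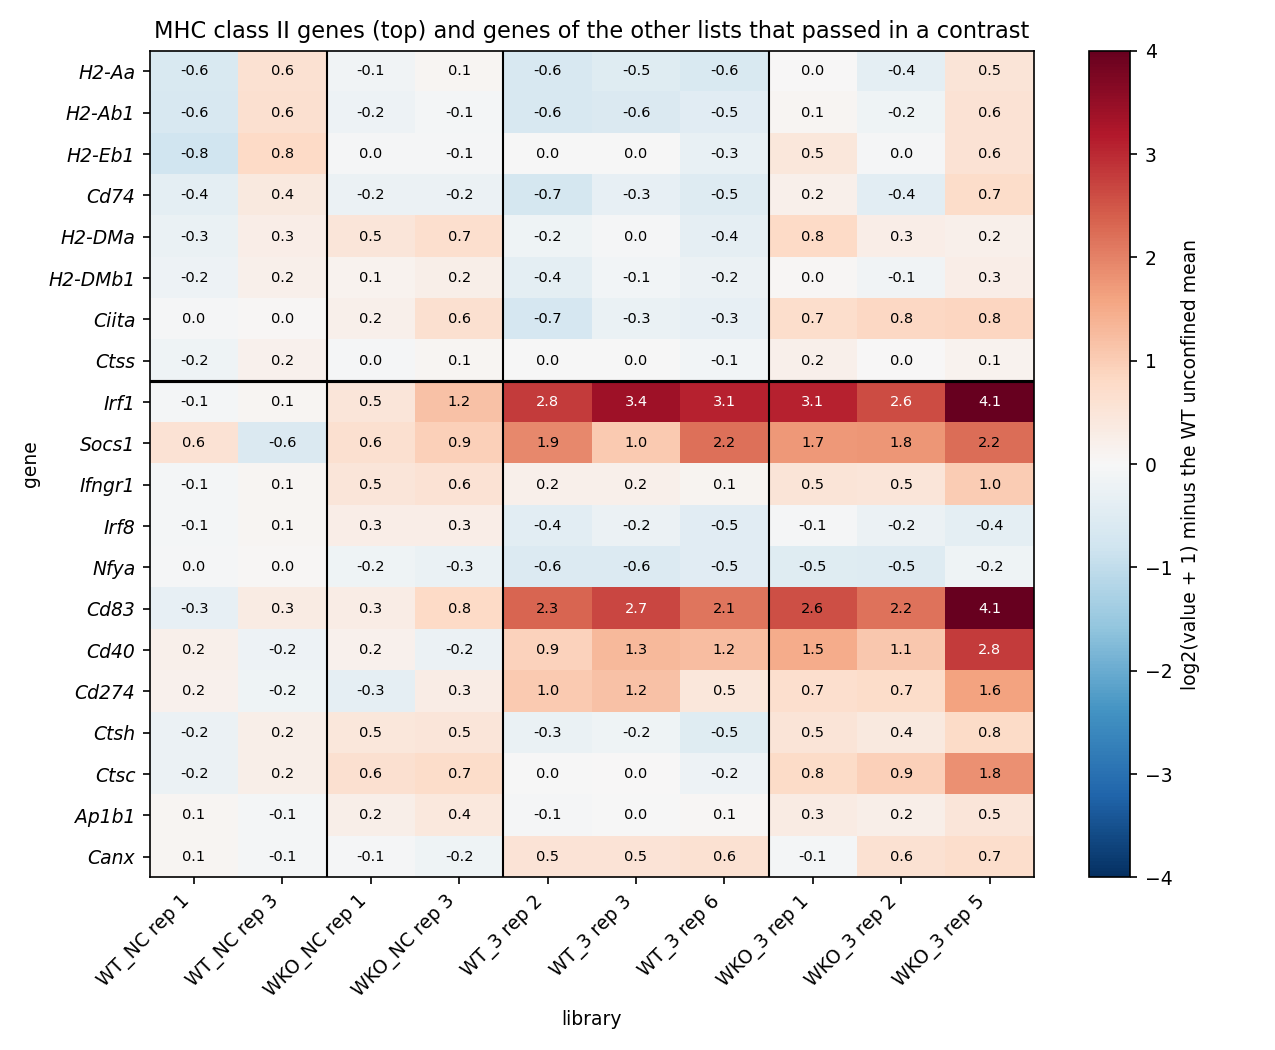
Log2(value + 1) of each gene (rows) in each library (columns) minus the mean of the 2 WT unconfined libraries; red is higher and blue lower, and the printed numbers are those differences. The 8 class II genes (above the line) mostly stay within 1 unit, while Irf1 and Cd83 (below it) rise in all 6 confined libraries.

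B cells and dendritic cells carry far more class II than resting macrophages, so their markers are given beside the members. In bulk RNA fewer cells of a type and less RNA per cell cannot be told apart. The 12 B cell markers summed to 1480 to 1502 in WT unconfined, 5762 to 6137 in WKO unconfined, 772 to 1333 in WT confined and 2274 to 7056 in WKO confined libraries, with 0 to 4 of the 12 at 0. Most of the sum was Ighm and Igkc, the immunoglobulin heavy and light chain genes. Ighm was higher in WKO by 2.52 in unconfined (adjusted p = 0.0483) and 2.47 in confined cells (adjusted p = 0.00551), and Igkc by 3.77 in confined cells (adjusted p = 0.0374). Cd79b, part of the B cell receptor, was higher by 1.47 in WKO confined cells (adjusted p = 0.0346). Other defining genes were low: Ms4a1 was at 0 to 42.9, Cd79a at 0 to 25.9 and Pax5 at 0 to 16.8. Of the 12 listed, 7 were tested and 3 passed as higher in WKO confined cells, against 1.38% of all tested genes. By fitted value 6 were higher and 1 lower in WKO unconfined cells, and 5 higher and 2 lower in WKO confined cells.

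Both the B cell sum and the sum of the 3 chain genes were higher in each WKO confined library (2274 to 7056 and 879 to 1486) than in each WT confined one (772 to 1333 and 729 to 789.5). The WT unconfined libraries had B cell sums of 1502 (replicate 1) and 1480 (replicate 3) beside chain sums of 641 and 1628. The WKO unconfined libraries had B cell sums of 6137 (replicate 1) and 5762 (replicate 3) beside chain sums of 923 and 1023. WKO confined replicate 5 had the lowest B cell sum of its group, 2274, with Ms4a1 and Pax5 at 0, and the highest chain sum, 1486. Its Ciita value was the highest, but only at 81.5 beside 80.0 in replicate 2. That library also stood apart in the stromal markers given below, which summed to 8269 in it, beside 2664 in replicate 1 and 695 in replicate 2.

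The 11 dendritic cell markers summed to 5666 to 6643 in WT unconfined, 3145 to 3486 in WKO unconfined, 3744 to 6058 in WT confined and 2660 to 3854 in WKO confined libraries. Most of this was Itgax, which is also made by macrophages and was lower in WKO over both conditions (log2 difference -0.90, adjusted p = 0.00773). The other 6 of the 7 tested markers had higher fitted values in WKO in unconfined cells, in confined cells and in the average, with medians over the 7 of 0.29, 0.52 and 0.41. Xcr1 was at 0 in all 10 libraries, and 1 to 3 of the 11 were at 0 in each. Flt3, at 1.17 to 28.4, was higher in WKO than in WT confined cells by 2.78 (adjusted p = 0.0346).

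Markers of other cells also moved with genotype. The 8 stromal markers summed to 763 to 1526 in WT unconfined and 1977 to 2271 in WKO unconfined libraries. In confined libraries they summed to 163 to 621 in WT and 695 to 8269 in WKO. Of the 8, 5 passed as higher in WKO confined cells, against 1.38% of all tested genes. Thbs2, one of the 8 stromal markers, is among the genes whose profile was closest to Ciita. The 8 neutrophil and progenitor markers summed to 6847 to 10700, 24632 to 29625, 2533 to 7903 and 6952 to 27786 in the same order. Of these 8, 0 passed between the genotypes in unconfined or confined cells, against 0.145% and 2.59% of all tested genes. Averaged over conditions 5 passed as higher in WKO, against 2.9% of all tested genes. Of the 8 T and NK cell markers only Cd4 was tested, at 0.83 higher in WKO confined cells (adjusted p = 0.011), and 5 to 7 of the 8 were at 0 in each library. The 10 macrophage markers summed to 211376 to 212383, 246268 to 254965, 183221 to 211398 and 257047 to 318557 in that order. Of the 10, 3 passed as higher in WKO confined cells, against 1.38% of all tested genes. The part of these cells in the Ciita, Ctsh and Ctsc differences was not tested.

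**Figure D4:**
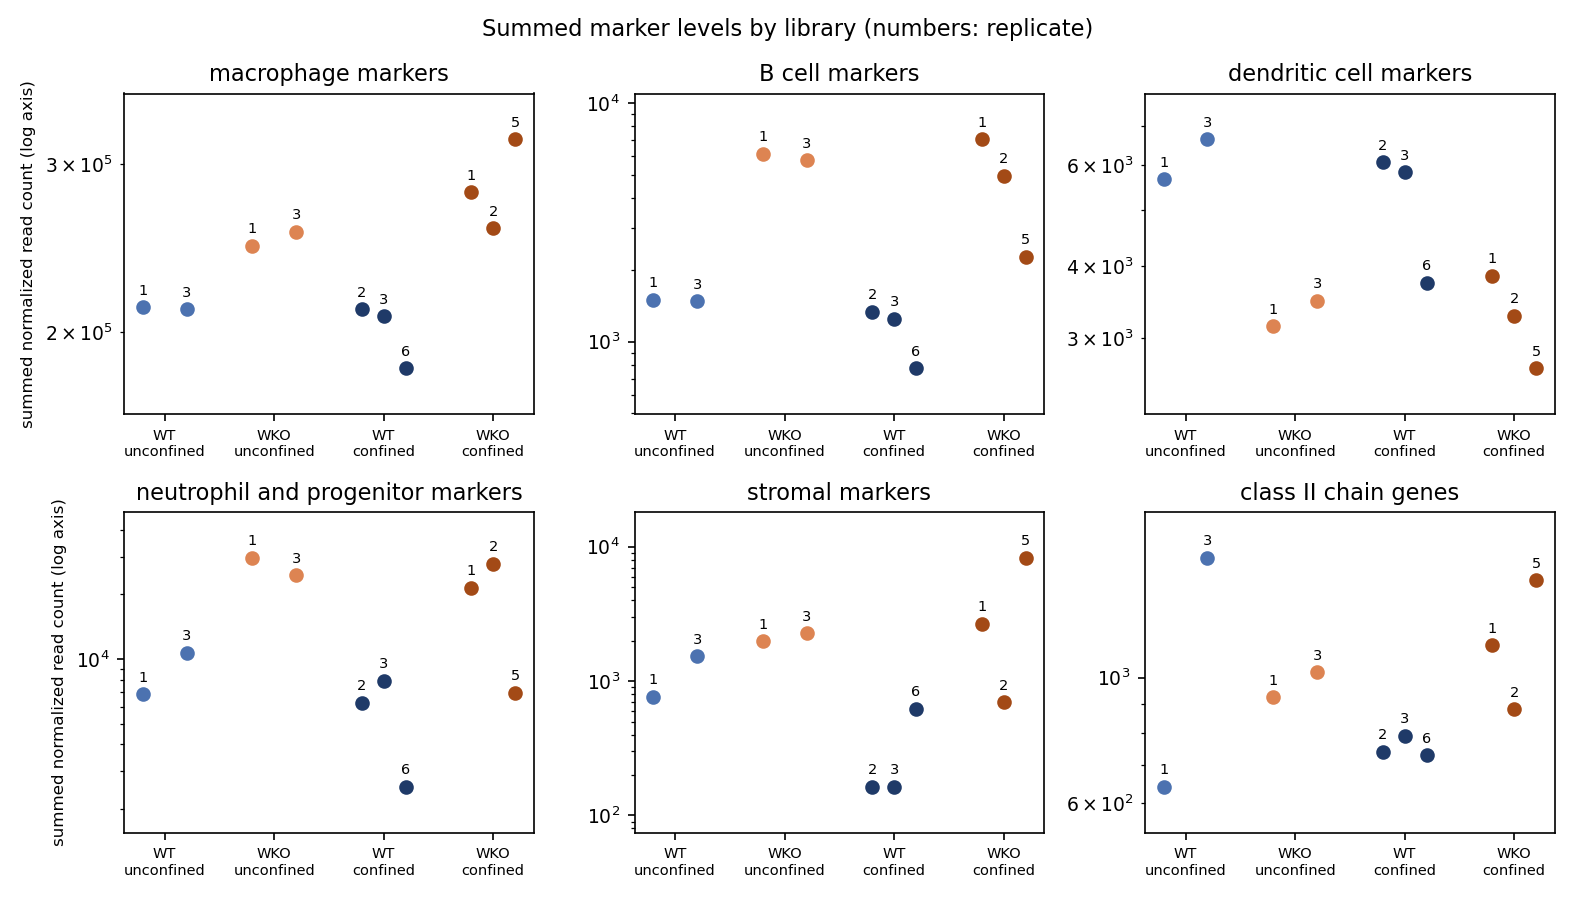
Summed normalized read count (y axis, log scale) of each marker list and of the 3 class II chain genes in every library, by group on the x axis; the number at a point is its replicate. B cell sums are higher in all 5 WKO libraries (2274 or more) than in the WT ones (1502 or less), while the chain sum of WT unconfined replicate 3, at 1628, is the highest of all.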

How the data were processed

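Polyadenylated RNA of 10 macrophage libraries was sequenced. Per the submitters' processing notes, FastQC, Trim Galore and STAR were used, with the builds GRCm38 and mm10. Versions, the counting tool, gene models and whether strand was used are not given in the sources used here. The deposited data are 1 table that gives, for each gene and library, a signal, namely a normalized read count. In every library 100% of the values were whole multiples of 1 step (tolerance 1e-06). Median-of-ratios factors recomputed with DESeq2 1.42.0 on the recovered reads matched to within 2.89e-15. The deposited values are thus reads divided by 1 factor per library, which leaves differences in composition and gene length in place.

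Genes with a mean of at least 10 were tested as log2(value + 1) with limma 3.58.1 in R 4.3.3, with 1 mean per group, all 10 libraries, 6 residual degrees of freedom and a mean-variance trend. This scale understates the change of low genes. Within each of the 7 comparisons p-values were adjusted by the Benjamini-Hochberg method over all 12455 genes, and 0.05 was the threshold. Of the 57010 identifiers, 33419 were 0 throughout; symbols came from the table for 33149 and from GENCODE M21 for 20029. The fits were tested on simulated data.

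Replicates of a group differed by more than sampling noise in every pair (chi-square per degree of freedom 7.56 to 78.3). A floor of 3 reads covers counting error only, since PCR reads are not independent molecules. Exon overlap, exon length and coordinates are from GENCODE M21, shared sequence from blastn 2.17.0, and promoters from RefSeq (GRCm38.p6).

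All 8 members are named in each comparison. Of each other list, genes passing in a comparison are named, up to 5 by p, and where none passes the one with the smallest p; genes of like profile are the 6 with the largest Pearson r. Some genes that these rules name are not reported here. Other list genes were named after their values were seen, for their roles. The members and lists were chosen with earlier results of these data known. Alternatives were another pseudocount, no filter, edgeR's TMM scaling, a replicate block, only the groups compared, edgeR 4.0.16 and DESeq2 on whole reads, and leaving out each library.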

Additional observations from a re-analysis of the deposited data

Results flagged for a closer look

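Ciita had fitted values that moved in opposite directions with confinement in the 2 genotypes, and neither change passed the test. Both WT unconfined libraries were above all 3 WT confined ones, and both WKO unconfined libraries were below all 3 WKO confined ones. The confinement difference in WKO minus that in WT was 0.79 on the log2(value + 1) scale (SE 0.415, limma adjusted p = 0.999 over all tested genes), so that the difference between the genotypes did not pass the test.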

How the results depend on the processing

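The alternatives gave 1239 values for 75 gene results. Of these, 40 turned in direction, none of a value that had passed and none past the threshold under the alternative, and 16 of the 40 came from leaving out WT unconfined replicate 3. The Ciita values rest on 26 to 93 reads per library, and whether depth limits them was not tested.

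Genes passing in WKO against WT unconfined cells numbered 18, and 181 with DESeq2, 10 without a filter, 189 with only the groups compared and 245 with the replicate block. In confined cells they numbered 322, and 775, 186 and 90 with the first 3 of these. For confinement in WT there were 144, and 332 with DESeq2 and 455 with only the groups compared; in WKO 214, and 484 and 33. For genotype averaged over conditions there were 694, and 1147 with DESeq2 and 438 without a filter; for confinement averaged over genotypes 773, and 1219 with DESeq2 and 383 with the replicate block. edgeR on the whole reads called 15, 319, 116, 186, 696 and 784 genes in these 6 comparisons. No alternative called a gene for the interaction. The cause of these shifts was not tested, beyond the fewer libraries and the larger number of genes tested.

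The members passing in confined cells fell from 1 to 0 without a filter (Ciita adjusted p = 0.0977), with only the groups compared (0.0828) and with the replicate block (0.132). Averaged over conditions they were 2 with DESeq2 (Ciita and H2-DMa), 0 with edgeR (Ciita adjusted p = 0.0523) and 0 without a filter (0.114). With the replicate block 1 passed there, H2-DMa (adjusted p = 0.0375) in place of Ciita (0.0855). Over all its alternatives the Ciita adjusted p in confined cells ran from 0.00739 to 0.132.

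Leaving out 1 library at a time, genes passing ranged from 4 to 141 (WKO against WT, unconfined), 58 to 701 (confined), 22 to 397 (confinement in WT), 43 to 1043 (in WKO), 169 to 1115 (genotype averaged) and 288 to 1807 (confinement averaged). Members passing ranged from 0 to 1 in confined cells and averaged over conditions. In the average the member passing was not always Ciita. Without WKO confined replicate 5 it was H2-DMa (limma adjusted p = 0.0276), while Ciita was at 0.0568.

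Where direction turned on 1 library, the log2 ranges were as follows. For WKO against WT unconfined cells they were -0.64 to 0.58 (H2-Aa), -0.78 to 0.49 (H2-Ab1), -0.86 to 0.76 (H2-Eb1), -0.62 to 0.17 (Cd74), -0.026 to 0.40 (H2-DMb1) and -0.15 to 0.19 (Ctss). Averaged over conditions they were -0.0096 to 0.60 (H2-Aa), -0.027 to 0.61 (H2-Ab1) and -0.21 to 0.60 (H2-Eb1). For confinement in WT they were -1.19 to 0.033 (H2-Aa), -1.19 to 0.076 (H2-Ab1), -0.92 to 0.70 (H2-Eb1), -0.47 to 0.072 (H2-DMa) and -0.23 to 0.12 (Ctss), and in WKO -0.15 to 0.29 (H2-Aa). For confinement averaged over genotypes they were -0.56 to 0.055 (H2-Aa), -0.44 to 0.19 (H2-Ab1), -0.27 to 0.54 (H2-Eb1), -0.26 to 0.14 (Cd74), -0.13 to 0.089 (Ciita) and -0.062 to 0.11 (Ctss). For the interaction they were -0.31 to 1.31 (H2-Eb1), -0.23 to 0.31 (H2-DMa), -0.10 to 0.33 (H2-DMb1) and -0.016 to 0.33 (Ctss).

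Whether the replicate numbers pair the libraries is not known. Deviations of same-numbered libraries correlated at -0.11 to 0.08, and those of differently numbered libraries at -0.20 to 0.24. Within each unconfined group the deviations of the libraries mirror each other, so these values cannot decide it. With the replicate block, confinement averaged over genotypes turned to 0.045 for Cd74, 0.013 for Ciita and 0.092 for H2-DMa, and H2-DMa to 0.17 in WKO and 0.0096 in WT; Canx (adjusted p = 0.396), Socs1 (0.449), Irf8 (0.293), Nfya (0.0778) and Ap1b1 (0.0702) no longer passed.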
